A study of Homo sapiens with 9 samples.

Results

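The expression of 10 genes of iron handling and ferroptosis was followed in MDA-MB-231 cells after knockdown of ASAH1. The members are FTH1, FTL, TFRC, SLC40A1, SLC11A2, GPX4, ACSL4, NCOA4, IREB2 and AIFM2, and they were taken by gene symbol from the 26485 genes of the deposited tables, where all 10 were found. MDA-MB-231 is a human triple-negative breast cancer line with mesenchymal features. ASAH1 encodes acid ceramidase, the lysosomal enzyme that splits ceramide into sphingosine and a fatty acid. The study sequenced RNA from cells that stably expressed a non-specific hairpin (NS shRNA), ASAH1 shRNA #1 or ASAH1 shRNA #2, with 3 libraries in each group. The methods call the libraries of a group biological replicates. All groups carry an shRNA, so no untreated cells enter the comparisons, and the p-values measure the spread between these libraries.

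Iron enters most cells as transferrin bound to the transferrin receptor, leaves endosomes through SLC11A2, is stored inside ferritin and leaves the cell through ferroportin, the product of SLC40A1. Iron regulatory proteins bind a hairpin in the mRNA, the iron responsive element. They block translation when the element lies in the 5′ UTR and protect the mRNA from decay when it lies in the 3′ UTR. Ferroptosis is a form of cell death driven by iron-dependent peroxidation of membrane phospholipids, which GPX4 and AIFM2 oppose and which ACSL4 favors.

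The elements are shown first, because they lie in the 5′ UTR of some members and in the 3′ UTR of others. The MANE Select transcripts of GENCODE release 44 (hg38) were searched on the sense strand for the loop letters CAGTGN. A C had to stand before the loop, with 5 bases between them. A full match had a stem of 5 base pairs above that C, and G-T counted as a pair. Capitals mark the loop, and 27 bases are given 5′ to 3′. Elements of this form lie in the 5′ UTR of FTH1 (chr11:61967575-61967601, minus strand), FTL (chr19:48965336-48965362, plus strand) and SLC40A1 (chr2:189580662-189580688, minus strand). The 3′ UTR of TFRC holds 4 of them (chr3:196050980-196051006, chr3:196050576-196050602, chr3:196050511-196050537 and chr3:196050464-196050490, minus strand). The 3′ UTR of SLC11A2 holds a looser match (chr12:50988270-50988296, minus strand).
FTH1, 5′ UTR: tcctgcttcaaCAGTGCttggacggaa
FTL, 5′ UTR: tcttgcttcaaCAGTGTttggacggaa
SLC40A1, 5′ UTR: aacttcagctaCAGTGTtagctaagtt
TFRC, 3′ UTR, most 5′ element: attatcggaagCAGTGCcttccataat
TFRC, 3′ UTR, next element: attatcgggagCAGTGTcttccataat
TFRC, 3′ UTR, next element: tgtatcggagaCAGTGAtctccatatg
TFRC, 3′ UTR, most 3′ element: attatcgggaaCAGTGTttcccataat
SLC11A2, 3′ UTR: gccatcagagcCAGTGTgtttctatgg

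Among all protein-coding MANE Select transcripts, 0.0906% of 5′ UTRs and 0.644% of 3′ UTRs held a match with all 5 pairs of the upper stem. The letters CAGTG alone stood in 19.4% of 5′ UTRs and 69.2% of 3′ UTRs. The FTH1 and FTL elements and those of SLC40A1 and TFRC had 5 of 5 upper pairs. Pairs were counted base by base outward from the loop, with no unpaired base allowed on the 3′ side. A stem with such a base scores low by this count, and such stems were not searched for. So counted, SLC11A2 had 4 of 5 upper pairs and 1 of 5 lower pairs. A further loose match with 4 of 5 upper pairs stood in the 3′ UTR of IREB2. A match that loose was found in 4.37% of 3′ UTRs. The search found no match in the UTRs of GPX4, ACSL4, NCOA4 or AIFM2 with these letters. The SLC11A2 element is in 4 of its 17 coding transcripts and that of SLC40A1 in 1 of 5, and a count per gene does not separate the forms with the element from those without it.

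**Figure D1:**
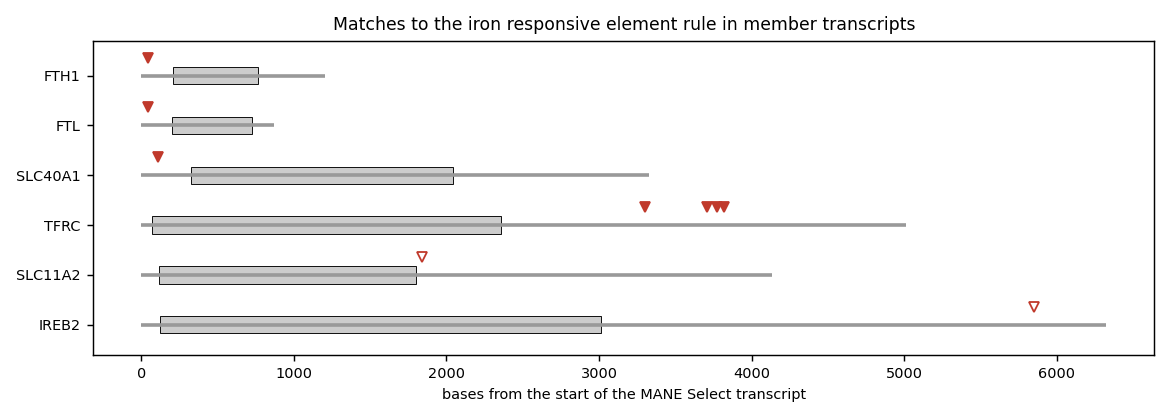
Position of the matches along the MANE Select transcript of 6 members, in bases from the transcript start. Boxes are coding sequence, lines are UTRs, filled triangles are matches with all 5 upper pairs and open triangles are matches with 4. The 3 matches of FTH1, FTL and SLC40A1 lie before the coding sequence and the 4 of TFRC after it.

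The targeted gene was checked first. ASAH1 had normalized counts of 4436, 4512 and 4518 with NS shRNA and of 1268, 1365 and 1348 with shRNA #1. In the other table, which has its own scaling, it had 4787, 4898 and 4871 with NS shRNA and 780, 807 and 762 with shRNA #2. Reads on genes per library ran from 30989598 to 34867548 with NS shRNA, from 23806003 to 39791698 with shRNA #1 and from 35653318 to 49659106 with shRNA #2. Markers of the line were high in NS shRNA cells, with 67718 normalized counts of VIM and 27080 of CD44, whereas ESR1 stood at 0.943 and PGR at 1.64. Other genes chosen as ones that should be low against VIM were expressed, with 729 for GATA3, 750 for EPCAM and 13188 for KRT8. The RNA is from bulk cells, so a change in every cell and a change in a share of the cells cannot be told apart.

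The first question was which of the 10 genes moved with each hairpin. Against NS shRNA, FTL, NCOA4, SLC11A2 and ACSL4 rose with shRNA #1, and SLC40A1 and GPX4 fell. With shRNA #2, FTH1, FTL, TFRC, SLC11A2 and ACSL4 rose while SLC40A1, NCOA4 and AIFM2 fell. SLC40A1, the iron exporter, had the largest change of the 10 members with either hairpin, a 7.60-fold fall with shRNA #1 and a 3.18-fold fall with shRNA #2. Each value is a log2 fold change from limma on log2(normalized count + 1), called at a Benjamini-Hochberg adjusted p below 0.05. The comparisons share the NS shRNA libraries and are given side by side.

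By count, 4 of 10 members rose and 2 fell with shRNA #1, while 32.8% of all 14341 genes tested rose and 33.3% fell. With shRNA #2, 5 rose and 3 fell, beside 33.5% and 33.4% of 14250 genes. The median log2 fold change of the members was 0.04 with shRNA #1 and 0.20 with shRNA #2, against 0.0013 and 0.013 over all genes tested. The number of members that moved is thus near the background, and the results lie in which members moved and by how much. Without shRNA #1 replicate 2, the count of members called higher with shRNA #1 was 2, with ACSL4 (adjusted p = 0.0623 by limma) and SLC11A2 (0.0594) no longer called.

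**Figure D2:**
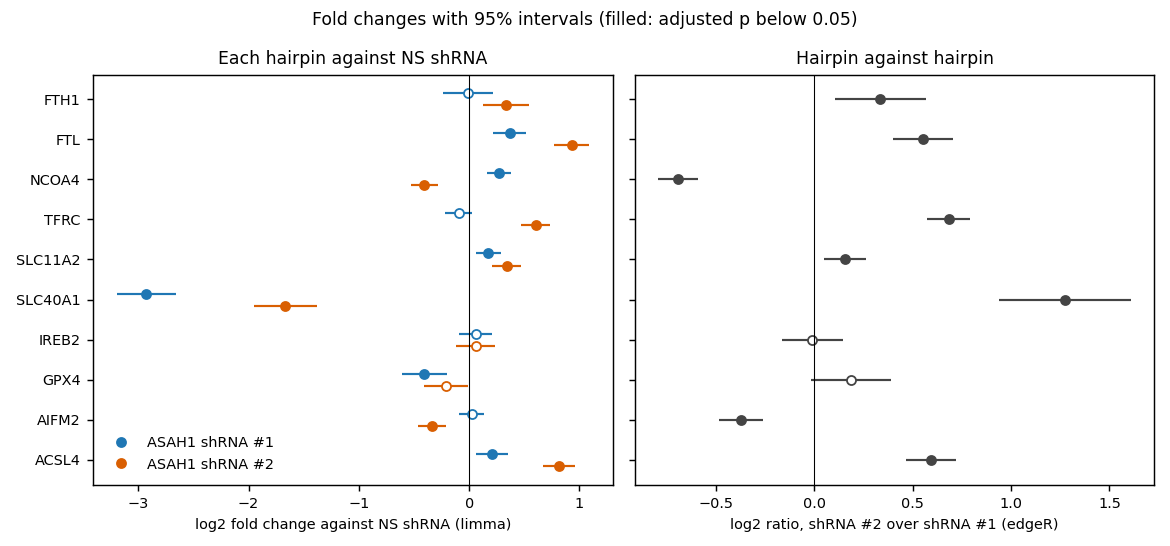
Log2 fold change of each member against NS shRNA (left) and of shRNA #2 over shRNA #1 (right), with 95% intervals before adjustment over genes. Filled points passed an adjusted p of 0.05. SLC40A1 lies farthest below 0 with both hairpins, and NCOA4 lies on opposite sides of 0.

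The ferritin genes encode the heavy chain, which oxidizes iron, and the light chain, which helps to build the mineral core. FTL was at 65545, 66569 and 57892 normalized counts with NS shRNA and at 78922, 78084 and 87891 with shRNA #1. In the other table it was at 70726, 72261 and 62420 with NS shRNA and at 130583, 120934 and 139725 with shRNA #2. Every hairpin library lay above every NS shRNA library. FTL rose 1.29-fold with shRNA #1 (log2 0.37, SE 0.067, adjusted p = 0.00092 by limma) and 1.91-fold with shRNA #2 (log2 0.93, SE 0.071, adjusted p = 1.42e-06).

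FTH1 was at 41929, 39976 and 33190 normalized counts with NS shRNA and at 34297, 36473 and 43191 with shRNA #1, and these groups overlapped. Its log2 fold change was -0.014 (95% interval -0.24 to 0.21, adjusted p = 0.910 by limma). With shRNA #2 the libraries stood at 49336, 49220 and 58219, all above the 45243, 43394 and 35785 of NS shRNA in that table. The rise was 1.26-fold (log2 0.34, SE 0.093, adjusted p = 0.00845). FTH1 also shared 33.2% of its 76-base windows with other places in the genome, and FTL 11.3%, so reads of both genes could have been placed elsewhere or dropped. The annotation names 25 and 16 pseudogenes of them, and whether the shared windows lie there was not checked. The pseudogene FTH1P3 had a mean of 9.57 normalized counts in NS shRNA cells, and the pseudogene FTLP10 had none there. The pseudogene FTH1P18 and the ferritin-like gene FTHL17 were at 0 in all libraries. Dropped reads would not show in these counts, and the other pseudogenes were not examined.

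The balance of the mRNAs of the 2 chains was read within each library, where scaling cancels. Reads lost to repeated sequence do not cancel in the level of this ratio, and the protein chains were not measured. There were 1.56, 1.67 and 1.74 FTL reads per FTH1 read with NS shRNA, 2.30, 2.14 and 2.03 with shRNA #1, and 2.65, 2.46 and 2.40 with shRNA #2. The groups did not overlap. The mean was 1.66 ± 0.0908 with NS shRNA, 2.16 ± 0.134 with shRNA #1 and 2.50 ± 0.129 with shRNA #2 (SD, n = 3). A two-sided exact permutation test gave p = 0.1 for either hairpin, the smallest value that 3 against 3 libraries allow.

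NCOA4 encodes the receptor that carries ferritin to the lysosome for breakdown, and it was the member that moved in opposite directions. It was at 7595, 8195 and 8263 normalized counts with NS shRNA and at 9730, 9903 and 9418 with shRNA #1. With shRNA #2 it was at 6669, 6566 and 6357, against 8195, 8895 and 8909 with NS shRNA in that table. No hairpin library overlapped its controls. NCOA4 thus rose 1.21-fold with shRNA #1 (log2 0.27, SE 0.048, adjusted p = 0.000789 by limma) and fell 1.33-fold with shRNA #2 (log2 -0.41, SE 0.054, adjusted p = 7.1e-05).

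**Figure D3:**
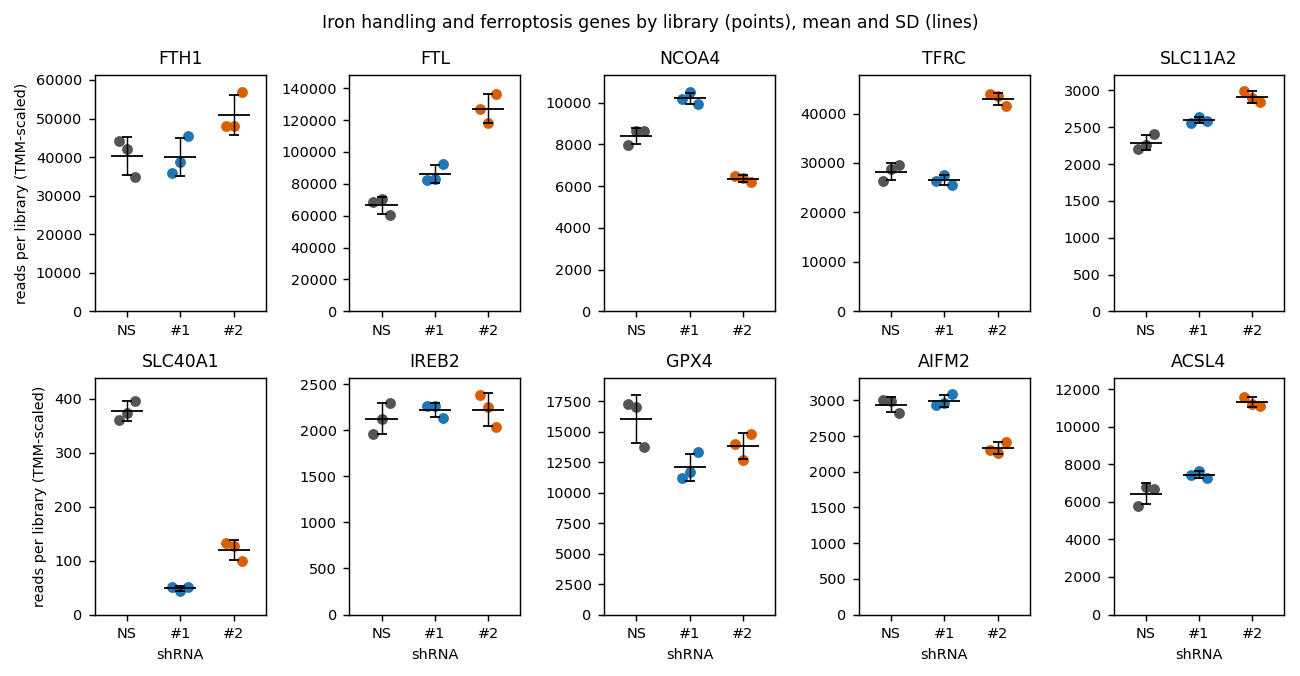
Reads of each member per library after TMM scaling of all 9 libraries, which puts the 3 groups on 1 scale. Points are libraries, and lines give the mean and SD (n = 3). In FTL and SLC40A1, for example, the 3 groups are apart, whereas IREB2 overlaps in all of them.

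The short transcripts among the members varied together between replicates. FTH1, FTL and GPX4 have MANE Select transcripts of 1203, 871 and 851 bases. In NS shRNA replicate 3 they lay 0.21, 0.13 and 0.21 below their group mean on the log2 scale, whereas in replicate 3 of shRNA #1 they lay 0.19, 0.11 and 0.14 above it. In shRNA #2 replicate 3, they lay 0.16, 0.10 and 0.10 above. The median deviation of 1140 tested genes with transcripts under 1300 bases was -0.13, 0.11 and 0.11 in the same 3 libraries. That of 4879 genes with transcripts over 4000 bases was 0.064, -0.055 and -0.055. Against NS shRNA, the median log2 fold change with shRNA #1 was -0.076 for 1141 short and 0.016 for 4877 long transcripts. With shRNA #2 it was -0.13 for 1128 short and 0.10 for 4850 long transcripts. For shRNA #2 over shRNA #1, the medians were -0.029 and 0.079. The part of transcript length in the results of FTH1, FTL and GPX4 was not tested. Nor was it for TFRC, SLC11A2, IREB2 and ACSL4, whose transcripts exceed 4000 bases.

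Leaving out the third library of every group, an alternative added after these deviations had been seen, gave a log2 fold change of FTH1 of -0.21 with shRNA #1 (adjusted p = 0.0011 by limma) and of 0.15 with shRNA #2 (adjusted p = 0.0244). FTH1 was then called lower with shRNA #1 and higher with shRNA #2. The libraries left out were those in which FTH1 lay farthest from the mean of its group. The smaller spread and the calls under this alternative thus follow in part from that choice, with fewer libraries per group, and are no separate evidence of a change. FTL stayed higher, at 0.25 and 0.81. The members called became 5 higher and 3 lower with shRNA #1, and 6 higher and 4 lower with shRNA #2. Under the same alternative 34.7% of all genes were higher and 35.1% lower with shRNA #1, and 33.6% and 33.0% with shRNA #2.

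**Figure D4:**
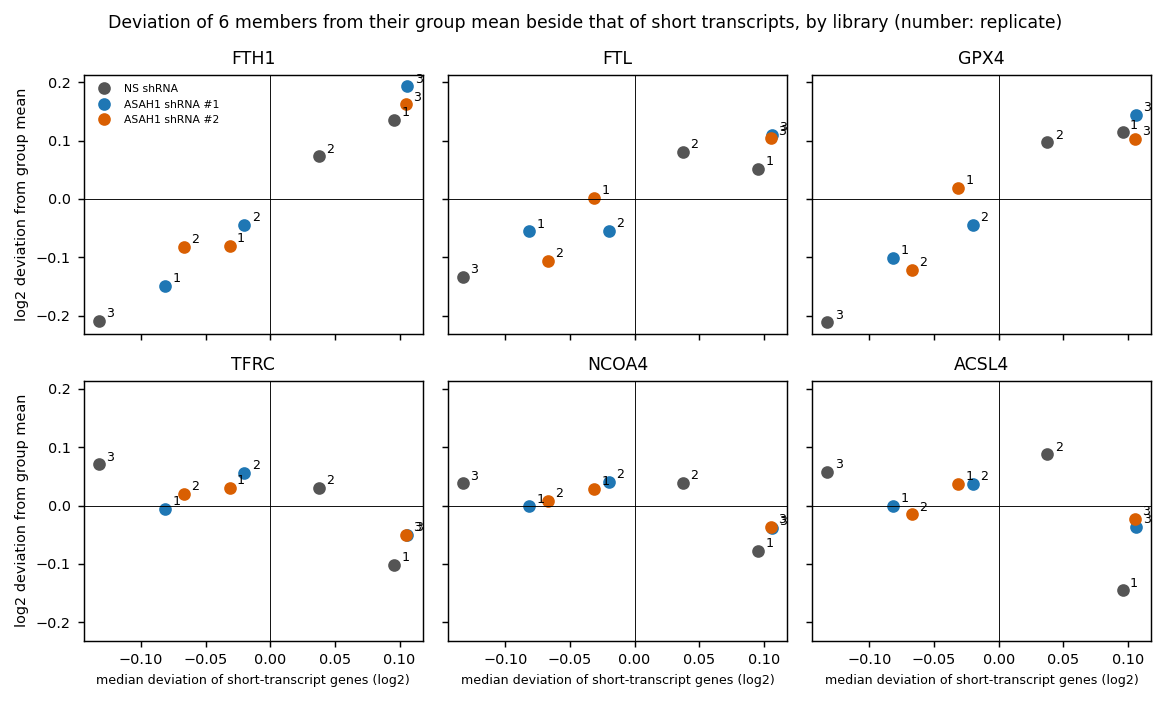
Log2 deviation of 6 members from the mean of their group (y) against the median deviation of the 1140 genes with transcripts under 1300 bases (x), with 1 point per library and the replicate number beside it. FTH1, FTL and GPX4 (top) run from lower left to upper right, with NS shRNA replicate 3 lowest. TFRC, NCOA4 and ACSL4 (bottom), which have longer transcripts, tend the other way. They lie below 0 in NS shRNA replicate 1 and in replicate 3 of both hairpins.

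Of the transport genes, SLC40A1 encodes ferroportin, the only known exporter of cellular iron in mammals. It was at 343, 354 and 379 normalized counts with NS shRNA and at 49.5, 41.0 and 49.0 with shRNA #1, which rest on 37, 51 and 51 reads. With shRNA #2 it was at 136, 130 and 101, against 370, 385 and 409 in NS shRNA of that table. All hairpin libraries lay far below their controls. The log2 fold change was -2.93 (SE 0.12, adjusted p = 7.23e-08 by limma) with shRNA #1 and -1.67 (SE 0.13, adjusted p = 1.42e-06) with shRNA #2.

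TFRC encodes the transferrin receptor, and its mRNA is the one with 4 matches to the element rule in the 3′ UTR. Elements with other loop letters would be missed by that rule. It was at 25040, 27318 and 28340 normalized counts with NS shRNA and at 25246, 26041 and 24308 with shRNA #1, which overlapped. The log2 fold change there was -0.093 (95% interval -0.22 to 0.030, adjusted p = 0.16 by limma), and without NS shRNA replicate 1 it was -0.14 and called (adjusted p = 0.0294). With shRNA #2, TFRC was at 45058, 44649 and 42506, above the 27020, 29654 and 30556 of its controls. This was a 1.52-fold rise (log2 0.60, SE 0.058, adjusted p = 6.79e-06).

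SLC11A2 encodes DMT1, which moves ferrous iron across membranes. It was at 2100, 2145 and 2300 normalized counts with NS shRNA, and at 2444, 2488 and 2454 with shRNA #1. In the other table it was at 2267, 2329 and 2480 with NS shRNA and at 3075, 2977 and 2910 with shRNA #2. Every hairpin library exceeded its controls. The rise was 1.13-fold (log2 0.18, SE 0.052, adjusted p = 0.0137 by limma) and 1.27-fold (log2 0.34, SE 0.059, adjusted p = 0.000439). With the replicate number as a block the first of these was not called (adjusted p = 0.065), nor was it without NS shRNA replicate 2 (adjusted p = 0.0519) or shRNA #1 replicate 2 (adjusted p = 0.0594).

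The mRNA of the exporter was set against that of the transferrin receptor within a library. There were 13.7, 13.0 and 13.4 SLC40A1 reads per 1000 TFRC reads with NS shRNA, 1.96, 1.57 and 2.02 with shRNA #1, and 3.02, 2.92 and 2.37 with shRNA #2. The groups did not overlap. The means were 13.4 ± 0.371, 1.85 ± 0.241 and 2.77 ± 0.346 (SD, n = 3), and the two-sided exact permutation p was 0.1 for either hairpin, again the smallest possible. The ratio is built from the reads of SLC40A1 and TFRC and restates their changes given above. It measures neither uptake nor export of iron.

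IREB2 encodes iron regulatory protein 2, one of the proteins that bind the element. It was at 1868, 2008 and 2193 normalized counts with NS shRNA, at 2164, 2137 and 2020 with shRNA #1, and at 2449, 2314 and 2082 with shRNA #2 in its own table, where NS shRNA stood at 2016, 2180 and 2364. The groups overlapped in both tables. The log2 fold change was 0.061 with either hairpin, with 95% intervals of -0.088 to 0.21 and -0.12 to 0.24 (adjusted p = 0.44 and 0.517 by limma). When the third library of every group was left out, the alternative added after deviations had been seen, IREB2 passed the threshold, at 0.15 (adjusted p = 0.025) and 0.18 (adjusted p = 0.0329).

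GPX4 encodes the selenoenzyme that reduces lipid hydroperoxides in membranes. It was at 16418, 16145 and 13159 normalized counts with NS shRNA and at 10719, 11017 and 12617 with shRNA #1, so every hairpin library lay below every control. GPX4 fell 1.33-fold (log2 -0.41, SE 0.091, adjusted p = 0.00299 by limma). With shRNA #2 it was at 14383, 13031 and 15201, which overlapped the 17715, 17525 and 14188 of NS shRNA. That change missed the threshold (log2 -0.21, SE 0.089, adjusted p = 0.0578). It passed as lower without NS shRNA replicate 3 (log2 -0.31, adjusted p = 0.0014), the library in which short transcripts were low. The same held without shRNA #2 replicate 3 (log2 -0.26, adjusted p = 0.0273). It also passed without the third library of every group, the alternative added after deviations had been seen (log2 -0.36, adjusted p = 1.72e-05).

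AIFM2 encodes FSP1, which regenerates ubiquinol as a trap for lipid radicals. It was at 2862, 2830 and 2695 normalized counts with NS shRNA and at 2796, 2792 and 2927 with shRNA #1, which overlapped (log2 0.022, 95% interval -0.088 to 0.13, adjusted p = 0.71 by limma). With shRNA #2 it was at 2374, 2314 and 2479, all below the 3089, 3072 and 2906 of its controls. AIFM2 fell 1.26-fold there (log2 -0.34, SE 0.058, adjusted p = 0.000395).

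ACSL4 encodes an acyl-CoA synthetase that loads long polyunsaturated fatty acids, the substrates of peroxidation, for incorporation into phospholipids. It was at 5519, 6458 and 6381 normalized counts with NS shRNA and at 7091, 7196 and 6875 with shRNA #1. In the other table it was at 5955, 7011 and 6880 with NS shRNA and at 11928, 11479 and 11407 with shRNA #2. The hairpin libraries were above their controls in both tables. ACSL4 rose 1.16-fold with shRNA #1 (log2 0.21, SE 0.063, adjusted p = 0.0155 by limma) and 1.76-fold with shRNA #2 (log2 0.81, SE 0.067, adjusted p = 2.16e-06). Without the intensity trend the former missed the threshold (adjusted p = 0.0508).

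To order the members by level, TMM-scaled reads were divided by the length of the MANE Select transcript. In NS shRNA cells, FTL led with 76410 ± 6021 reads per kb (SD, n = 3), followed by FTH1 with 33513 ± 4106 and GPX4 with 18820 ± 2296. TFRC was at 5638 ± 347, NCOA4 at 2434 ± 111 and ACSL4 at 1314 ± 113. AIFM2 (937 ± 33.0), SLC11A2 (555 ± 24.8), IREB2 (336 ± 26.2) and SLC40A1 (113 ± 5.51) closed the order, and no neighbours in it overlapped. With shRNA #1 the order was the same, again with no overlap between neighbours, and SLC40A1 stood at 14.7 ± 1.45 reads per kb. With shRNA #2, ACSL4 (2313 ± 53.0) stood above NCOA4 (1839 ± 42.4), and AIFM2 (743 ± 26.6) and SLC11A2 (705 ± 18.6) overlapped.

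The hairpins were then compared with each other on the recovered reads of all 9 libraries with the quasi-likelihood test of edgeR after TMM scaling. With shRNA #2, FTH1, FTL, TFRC, SLC11A2, SLC40A1 and ACSL4 were higher than with shRNA #1, NCOA4 and AIFM2 were lower, and IREB2 and GPX4 were not called. These 6 and 2 of 10 members stand beside 31.4% and 32.5% of all 14370 genes tested. The median log2 ratio of the members was 0.26, against -0.0054 over all genes. The difference between hairpins concerned TFRC most among the members that shRNA #1 had not moved, at a log2 ratio of 0.68 (SE 0.049, adjusted p = 4.22e-07). NCOA4 differed by -0.69 (SE 0.046, adjusted p = 2.14e-07) and SLC40A1 by 1.27 (SE 0.15, adjusted p = 2.27e-05).

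Of the other members, ACSL4 differed by 0.59 (adjusted p = 4.33e-06 by edgeR), FTL by 0.55 (3.61e-05) and AIFM2 by -0.37 (5.7e-05). FTH1 at 0.34 (adjusted p = 0.015) and SLC11A2 at 0.15 (adjusted p = 0.015) were closest to the threshold, and both missed it under upper quartile scaling (adjusted p = 0.0511 and 0.168). FTH1 also missed it without shRNA #1 replicate 1 (0.0609), shRNA #1 replicate 2 (0.0551) or shRNA #2 replicate 3 (0.0590), and SLC11A2 without shRNA #2 replicate 1 (0.0542). GPX4 differed by 0.19 (95% interval -0.017 to 0.39, adjusted p = 0.0985), which passed without NS shRNA replicate 3 (0.0318) or shRNA #1 replicate 3 (0.0299), and IREB2 by -0.0099 (95% interval -0.17 to 0.15, adjusted p = 0.91). ASAH1 itself was lower with shRNA #2 than with shRNA #1 (log2 -0.89, SE 0.051, adjusted p = 6.97e-08), so the depth of the knockdown and the identity of the hairpin cannot be told apart.

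The members were set among 101 further genes of iron and ferroptosis biology in 6 lists, 98 of which were in the tables. With shRNA #1, 27 of the 88 tested rose, 37 fell, beside 32.8% and 33.3% of all genes tested, and the median on the log2 scale was -0.053 (0.0013 over all genes tested). With shRNA #2, 37 of 89 rose, 33 fell, beside 33.5% and 33.4% of all genes, and the median was 0.018 (0.013 over all genes tested). The genes named here were called in both comparisons, and their log2 fold changes, given for shRNA #1 and then #2, had SEs between 0.042 and 0.16, STEAP4, ALOXE3 and ALOX12B apart.

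Among genes of iron uptake, storage and export, 3 of 12 rose and 5 fell with shRNA #1, where 32.8% of all genes rose and 33.3% fell, and 5 rose and 6 fell with shRNA #2, where the shares were 33.5% and 33.4%. The list medians were -0.17 and -0.24 (log2). SLC39A14, a transporter of iron not bound to transferrin, rose by 0.84 and 1.02 (log2) with shRNA #1 and #2, from 5319 normalized counts to 9541 in the table of shRNA #1. STEAP3, the endosomal ferrireductase that works beside the transferrin receptor, fell by 0.88 and 1.13. Its relative STEAP1 had a log2 fold change of 0.84 with shRNA #1 and -0.76 with shRNA #2. STEAP4 went from 25.3 ± 7.62 to 12.2 ± 4.73 normalized counts with shRNA #1 and from 27.3 ± 8.30 to 43.1 ± 5.28 with shRNA #2 (SD, n = 3), and both calls were lost under several alternatives. For shRNA #1 these included leaving out NS shRNA replicate 2 or 3 or shRNA #1 replicate 1 or 3, and for shRNA #2 leaving out NS shRNA replicate 1 or shRNA #2 replicate 1 or 2.

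Of the genes of iron sensing and hormonal control, 1 of 4 rose and 3 fell with shRNA #1, and 1 of 5 rose and 4 fell with shRNA #2. Against 32.8% higher and 33.3% lower over all genes with shRNA #1, and 33.5% and 33.4% with shRNA #2, these are counts of 4 and 5 genes and carry no test, with medians of -0.26 and -0.52 (log2). ACO1, which encodes iron regulatory protein 1, fell by 0.19 and 0.69 (log2), and HFE, a partner of the transferrin receptor, fell by 0.59 and 0.52. FBXL5, the iron-sensing ligase subunit that marks iron regulatory protein 2 for degradation, fell by 0.33 with shRNA #1 and by 0.17 with shRNA #2 (adjusted p = 0.0189 by limma). The latter call was lost with the replicate block (adjusted p = 0.0942), and without NS shRNA replicate 2 or 3 or shRNA #2 replicate 1 or 3 (adjusted p from 0.0527 to 0.0779). NEO1, a co-receptor in the control of hepcidin, had 0.58 and -0.56, and the latter was not called without NS shRNA replicate 3 (adjusted p = 0.0502).

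Heme genes counted 4 of 16 higher and 5 lower with shRNA #1, and 4 higher and 7 lower with shRNA #2. Over all genes, 32.8% were higher and 33.3% lower with shRNA #1, and 33.5% and 33.4% with shRNA #2. The list medians were -0.00077 and -0.11 (log2). ALAD, the second enzyme of heme synthesis, fell by 1.29 and 1.05 (log2), from 1831 to 752 normalized counts with shRNA #1, and UROS, a later enzyme of the same path, fell by 0.34 and 0.82. ABCG2, which exports porphyrins among other substrates, rose by 1.69 and 0.78 from 73.6 normalized counts, and BLVRB, a biliverdin reductase, by 0.48 and 0.86.

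In the mitochondrial iron and iron-sulfur cluster list, 5 of 17 rose and 4 fell with shRNA #1, and 8 rose and 3 fell with shRNA #2, beside all-gene shares of 32.8% and 33.3%, and of 33.5% and 33.4%. The list medians were 0.10 and 0.047 (log2). The cochaperone HSCB rose by 0.62 and 0.60 (log2), and its partner HSPA9, which hands clusters on, by 0.90 and 1.08. NFS1, the cysteine desulfurase that supplies the sulfur, fell by 0.58 and 0.73, while LYRM4, its stabilizing subunit, rose by 0.34 and 0.29.

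Lipid peroxidation genes and other ferroptosis drivers counted 5 of 17 higher and 7 lower with shRNA #1, and 7 higher and 7 lower with shRNA #2. The all-gene shares were again 32.8% and 33.3%, and 33.5% and 33.4%, and the list medians were -0.099 and 0.039 (log2). FADS2, a desaturase of polyunsaturated fatty acids, fell by 1.24 and 0.92 (log2), and ALOX5, a lipoxygenase, by 0.99 and 1.22. The other lipoxygenases of the list that were tested, ALOXE3 and ALOX12B, were called higher with both hairpins, from low counts. ALOXE3 went from 9.47 to 199 normalized counts with shRNA #1 and from 10.2 to 42.8 with shRNA #2. ALOX12B went from 10.1 to 31.7 and from 10.9 to 21.2. SAT1, a polyamine acetyltransferase, rose by 0.53 and 1.55. PEBP1, a partner of lipoxygenases, fell by 0.39 and 0.89.

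Among ferroptosis suppressors and genes of glutathione supply, 9 of 22 rose and 13 fell with shRNA #1, beside 32.8% and 33.3% of all genes. With shRNA #2, 12 rose and 6 fell, beside 33.5% and 33.4%. The list medians were -0.20 and 0.21 (log2). SLC7A11 and SLC3A2 form the cystine importer that feeds glutathione synthesis. SLC7A11 rose by 1.57 and 2.03 (log2), from 1665 to 4931 normalized counts with shRNA #1 and from 1800 to 7358 with shRNA #2, and SLC3A2 rose from 6768 to 23514 and from 7316 to 17743. SCD, which makes monounsaturated fatty acids, fell by 2.23 and 0.92, from 23104 to 4912 normalized counts with shRNA #1. COQ2, an enzyme of coenzyme Q synthesis, fell by 0.73 and 1.02.

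**Figure D5:**
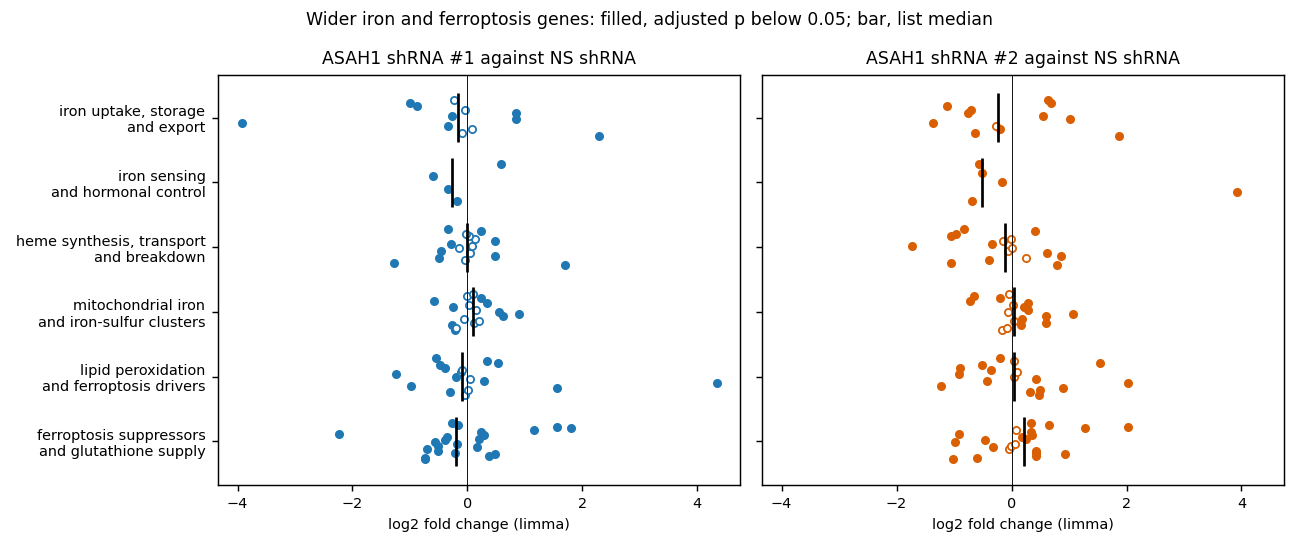
Log2 fold change of each tested gene of the 6 lists against NS shRNA, by list, for shRNA #1 (left) and shRNA #2 (right). Filled points passed an adjusted p of 0.05 by limma and vertical bars are list medians. Each list holds points on both sides of 0.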

How the data were processed

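MDA-MB-231 RNA was sequenced in 9 libraries, 3 per group. Per the labels and the methods, mRNA was taken with oligo-dT beads and strand-specific libraries were made, whereas the design text of the series names ribosomal depletion. The submitters' processing notes name Trimmomatic 0.36, STAR 2.7.1a, HTSeq, DESeq2 1.28 and hg38, and another methods paragraph names Bowtie2, RSEM and edgeR. The authors deposited 2 tables, each with 1 hairpin and the NS shRNA libraries, of a normalized signal per gene, a read count divided by a size factor. The tables also hold fold changes and p-values of the authors' own comparisons, which were not used. All 12 library columns were matched to samples, with 0 left over. In the recovery of reads, 100% of values were whole within 0.001, and the NS shRNA libraries had 0 differences between tables. A spreadsheet had turned 28 symbols into dates in 1 table, and these were taken from the other.

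Each hairpin was compared with NS shRNA within its table by limma 3.58.1 (two-sided, trend for intensity) on log2 of the deposited value plus 1, keeping genes whose mean was 10 or more. The hairpins were compared by edgeR 4.0.16 on the recovered reads, with TMM. Benjamini-Hochberg adjustment covered all genes tested, and the threshold was 0.05. Intervals are 95%. The code was tested on simulated data. R 4.3.3, DESeq2 1.42.0, Python 3.11.15, pandas 2.3.3 and matplotlib 3.10.9 were used. The members and the lists were chosen with earlier results of these data known. Genes of the wider lists were named if called in the same direction in both comparisons with a mean of at least 100, up to 4 a list by mean size of change, or if called in opposite directions with an absolute log2 fold change of at least 0.5 in each. ALOXE3 and ALOX12B were added beside ALOX5 after their values had been seen. No set test was run. Transcript lengths and UTRs came from GENCODE release 44, and 84.8% of tested genes had a length. Depth limits SLC40A1 most among the members. Alternatives were other pseudocounts, filters and scalings, edgeR and DESeq2 on the reads, 1 fit of all 9 libraries, the replicate block and each library left out.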

Additional observations from a re-analysis of the deposited data

Results flagged for a closer look

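A test of the difference itself marked 8 of the 10 members as differing in level between the hairpins, by edgeR on the reads of all 9 libraries with an adjusted p below 0.05. As log2 ratios of shRNA #2 over shRNA #1, these were FTH1 at 0.34, FTL at 0.55, TFRC at 0.68, SLC11A2 at 0.15, SLC40A1 at 1.27 and ACSL4 at 0.59, all higher with shRNA #2, and NCOA4 at -0.69 and AIFM2 at -0.37, both lower. Over all genes tested, 31.4% were higher and 32.5% lower. FTL, SLC11A2, SLC40A1 and ACSL4 were called in the same direction against NS shRNA with both hairpins, so for them the size of the change differed. The calls of FTH1 and SLC11A2 were lost under upper quartile scaling (adjusted p = 0.0511 and 0.168 by edgeR) and on leaving out single libraries.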

How the results depend on the processing

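Of 30 member results (10 genes in 3 comparisons), 18 kept their direction and call under every alternative run. Leaving out each library in turn gave 2 to 4 members higher and 2 to 3 lower with shRNA #1, 5 to 5 and 3 to 4 with shRNA #2, and 5 to 7 and 2 to 2 between hairpins. With the replicate block the counts were 3 and 2, 5 and 3, and 6 and 2. Deviations of libraries with the same number correlated at -0.27 to -0.13 for shRNA #1 with NS shRNA, at -0.32 to -0.098 for shRNA #2 with NS shRNA and at 0.051 to 0.20 between hairpins, where each library correlated best with its own number, a hint from the data and not from the design. The numbers were not taken to pair the libraries. Values near 0 changed sign. With libraries left out in turn, FTH1 with shRNA #1 ran from -0.12 to 0.056, AIFM2 with shRNA #1 from -0.0044 to 0.039, and between hairpins IREB2 from -0.060 to 0.054, HFE from -0.046 to 0.13 and HSCB from -0.12 to 0.019. Without the third libraries, AIFM2 with shRNA #1 was at -0.027 and IREB2 between hairpins at 0.025. IREB2 between hairpins was 0.0015 with all genes with a read, and HFE -0.018 under upper quartile scaling. GPX4 with shRNA #2 was called lower under DESeq2 (-0.22, adjusted p = 0.0363) and upper quartile scaling (-0.25, adjusted p = 0.0246), and GPX4 between hairpins was called with all genes with a read (0.20, adjusted p = 0.0381). The cause was not tested.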

Other observations

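The following genes were named after their values had been seen. GCLC and GCLM, which encode the subunits of the enzyme that commits cysteine to glutathione, were lower with shRNA #1 (log2 -0.21 and -0.51) and higher with shRNA #2 (0.43 and 0.43). NQO1 and TXNRD1, reductases of quinones and thioredoxin, had the same signs, at -0.36 and -0.16 with shRNA #1 and 0.17 and 0.65 with shRNA #2. For all 4 genes the adjusted p from limma was below 0.05 in both comparisons. Between the hairpins, the log2 ratios of shRNA #2 over shRNA #1 were 0.64 for GCLC, 0.93 for GCLM, 0.52 for NQO1 and 0.80 for TXNRD1, with adjusted p of 1.51e-06, 5.26e-08, 4.92e-06 and 9.6e-08 by edgeR. VKORC1L1 had the same signs (-0.27 and 0.34 against NS shRNA), but related genes did not all share them. GSS, a later enzyme of glutathione synthesis, had 0.17 and -0.32, both called. GSR had -0.71 and -0.040 and HMOX1 0.47 and -0.15, with only the former of each called. SLC7A11 was higher with both hairpins.

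ACSL3, which activates monounsaturated fatty acids, was lower with shRNA #1 (log2 -0.30, adjusted p = 0.000732 by limma) and higher with shRNA #2 (log2 0.33, adjusted p = 0.000246), whereas its relative ACSL4 was higher with both. SCARA5, a receptor for ferritin, had 26.5 ± 8.81 normalized counts with NS shRNA and 0.908 ± 0.965 with shRNA #1 (SD, n = 3). In the table of shRNA #2 it had 28.7 ± 9.54 with NS shRNA and 10.4 ± 3.85 with the hairpin. These levels rest on few reads, and no fold is given.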
